A study of Homo sapiens with 18 samples.

Results

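The HOX cluster genes are the 39 protein-coding genes whose symbols in the GENCODE annotation of GRCh38 join HOXA, HOXB, HOXC or HOXD to a number. They were 39 of the 61541 genes listed in the count tables. The libraries were bulk RNA-seq of A549, a wild-type human lung adenocarcinoma cell line, grown in DMEM with fetal bovine serum and given sodium propionate (SP) at 5 mM or no treatment. SP is the sodium salt of a short-chain fatty acid. Each of 6 groups held 3 libraries: untreated cells at 24 hours (control 24 h) with SP 3 h and SP 24 h in one table, and untreated cells at 3 days (control 3 days) with SP 3 days and SP 12 days in the other. SP 3 h was set against control 24 h and SP 12 days against control 3 days, so in these comparisons the treatment and the hours or days in culture cannot be told apart. The labels do not say whether libraries of a group came from separate cultures, so the p-values measure only the spread between these libraries.

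HOX genes encode homeodomain transcription factors that give cells their position along the body axis in the embryo. They lie side by side in clusters on separate chromosomes, and the number in a symbol gives the paralog position: low numbers are anterior genes, used in the hindbrain and pharyngeal region, and high numbers are posterior genes, used in the lower trunk, limbs and urogenital tract. Retinoic acid opens the anterior ends, Polycomb proteins keep clusters silent, Trithorax proteins keep them active, and PBX and MEIS proteins bind DNA together with HOX proteins. In the developing lung HOXA5 and HOXB5 are among the members with known roles in the airway.

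The HOXA cluster held 11 members over 107 kb of chromosome 7, HOXB 10 members over 200.2 kb (chr17:48528526-48728750), HOXC 9 members over 117 kb (chr12:53938831-54056030) and HOXD 9 members over 98.2 kb (chr2:176092721-176190907), in GRCh38 coordinates. Members overlap one another and the noncoding transcripts between them: 25 of the 39 shared exon bases with another annotated gene, and whether counting used the strand is not given in the sources used here. Values of a member with much shared sequence are therefore uncertain. Of those described, HOXA7 shared 62.5% of its exon length, HOXB6 32.9%, HOXA9 27.0%, HOXA10 26.3%, HOXD8 24.4% and HOXA3 19.8%. For some others the shared length is given beside the values.

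RefSeq promoters (GRCh38.p14) could be matched to 20 of the 39 members. The 250 bases before the start are shown for HOXD10 and HOXD11, neighbours that rose together, and for HOXA11, which had the lowest fold change of the HOXA cluster in each comparison with control. Capitals mark matches, on either strand, to 4 motifs. These were the TATA box TATAAA, the NF-Y box written as CCAAT, the SP1 box written as GGGCGG, and a form of the joint HOX and PBX site written as TGATTNAT. The HOXD windows overlapped no annotated exon, while all 250 bases of the HOXA11 window lay in exons of the noncoding gene HOXA11-AS on the opposite strand.
HOXD10, chr2:176116528-176116777, plus strand: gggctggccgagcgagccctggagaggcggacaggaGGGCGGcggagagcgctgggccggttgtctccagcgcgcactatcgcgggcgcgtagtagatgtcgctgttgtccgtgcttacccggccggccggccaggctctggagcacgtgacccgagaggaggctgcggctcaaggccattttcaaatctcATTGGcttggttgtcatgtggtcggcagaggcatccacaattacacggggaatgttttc
HOXD11, chr2:176107030-176107279, plus strand: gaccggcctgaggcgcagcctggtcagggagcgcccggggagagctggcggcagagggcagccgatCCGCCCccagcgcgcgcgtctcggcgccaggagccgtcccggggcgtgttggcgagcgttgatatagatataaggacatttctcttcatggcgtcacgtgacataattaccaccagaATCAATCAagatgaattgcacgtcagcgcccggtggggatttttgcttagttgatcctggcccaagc
HOXA11, chr7:27185233-27185482, minus strand: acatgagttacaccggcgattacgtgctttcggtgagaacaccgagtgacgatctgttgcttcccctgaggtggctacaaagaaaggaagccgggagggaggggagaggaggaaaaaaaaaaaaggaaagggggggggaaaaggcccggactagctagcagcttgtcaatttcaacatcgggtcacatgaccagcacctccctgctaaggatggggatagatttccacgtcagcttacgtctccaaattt
HOXD10 held GGGCGG 214 bases and CCAAT 59 bases before its start. HOXD11 held GGGCGG at 184 and TGATTNAT at 67 bases before its start, and the HOXA11 window held none of the 4. The same windows of 27305 promoters held CCAAT in 33.0%, GGGCGG in 42.3%, TATAAA in 11.1% and TGATTNAT in 2.59%. Of the 20 HOX windows, 17 held CCAAT, 10 GGGCGG, 4 TATAAA and 2 TGATTNAT, with HOXC4 and HOXC5 sharing 1 window. A match is a run of letters and says nothing of binding in these cells.

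The libraries held between 14187401 and 43765330 counts. Replicate 3 of control 24 h, of SP 3 h and of SP 12 days each stood apart from the other libraries of its group, with chi-square values per degree of freedom of 60.1 to 107, 31.1 to 68.7 and 19.4 to 31.3 for the pairs that include it, against 23.8, 9.93 and 3.04 for the other pair. All 5 epithelial markers were present in each group, with summed levels of 5988 to 8364 CPM (counts scaled per 1e6 of the TMM-scaled library size) in the untreated libraries and 10987 to 15325 CPM at SP 24 h, 3 days and 12 days. Markers of leukocytes summed to at most 0.625 CPM and of endothelium to at most 2.88 CPM. The 5 fibroblast markers summed to between 6.4 and 21.5 CPM in control 24 h, 18.5 and 38.3 at SP 3 h, 62.6 and 89.6 at SP 24 h, 14.04 and 14.7 in control 3 days, 60.8 and 70.99 at SP 3 days, and 34.7 and 60.2 at SP 12 days, most of it COL1A1. COL1A2 and DCN had at most 1 and 9 reads in a group, and the part of these markers in the HOX results was not tested. In bulk RNA, fewer cells with a transcript and less of it in each cell cannot be told apart.

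Untreated A549 expressed members of all 4 clusters, with the highest levels in the central HOXB genes. Per kb of exon, averaged over both control groups, HOXB7 stood first at 21.5 CPM per kb, followed by HOXB6 at 11.5, HOXB8 at 9.71 and HOXB9 at 8.81 CPM per kb. HOXB7 measured 22.4 ± 2.60 CPM per kb in control 24 h and 20.6 ± 1.51 in control 3 days (SD, n = 3), whereas HOXB6 measured 8.43 ± 1.66 and 14.6 ± 0.581, so the spreads of these neighbours in the order did not meet. HOXB6, HOXB8 and HOXB9 overlapped one another in control 24 h. The highest members of the other clusters were HOXC13 at 6.47, HOXA3 at 6.06 and HOXD8 at 2.53 CPM per kb.

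At the low end, HOXB1 had 0 reads in all 18 libraries and HOXC12 had 0 to 3 reads per group, so both were at or under the floor of 3 reads in each group. HOXD3, HOXD12 and HOXD13 had 1 to 14 reads per group and were not tested either. In all, 34 members passed the filter on low counts in at least 1 table, 33 in the table of days and 32 in the table of hours. HOXC5 was tested in hours only and HOXD1 and HOXD4 in days only. The 2 tables were scaled separately, and side by side the HOXB sum was 124 ± 13.1 CPM in control 24 h and 231 ± 6.41 CPM in control 3 days.

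**Figure D1:**
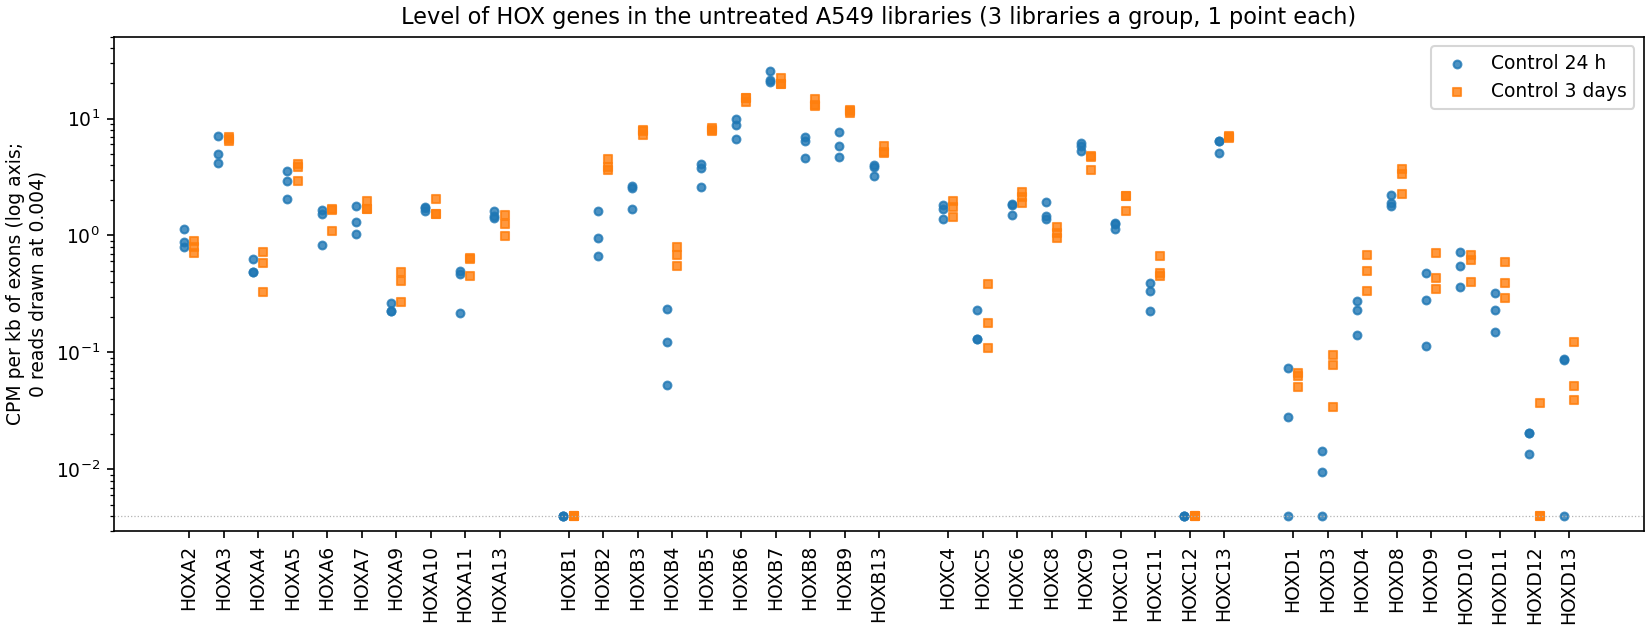
Level of the HOX genes described here in the untreated libraries, in CPM per kb of merged exons on a log axis, with 1 point per library and genes in cluster order. Circles are control 24 h, squares control 3 days, and libraries with 0 reads are drawn at 0.004. HOXB7 stands highest, at 21.5 CPM per kb over both groups, while HOXB1 and HOXC12 lie at 0 in both.

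With SP some HOX genes rose and others fell in each comparison with control. A gene was called when its adjusted p (edgeR quasi-likelihood test, Benjamini-Hochberg over all genes tested) was under 0.0001 and its fold change at least 2; rose and fell are used for an adjusted p under 0.05 at any fold. At SP 3 days 1 of 33 members was called, against 8.44% of all genes (6.58% higher and 1.86% lower), and it was higher. At SP 12 days 3 of 33 were called, 1 higher and 2 lower, against 9.11% (6.88% higher and 2.23% lower). No member was called at SP 24 h, where 0.685% of all genes were, nor at SP 3 h, where 0% were. At those times 11 and 12 of the 32 members had an unadjusted p under 0.05, and DESeq2 called 3 members (HOXB13, HOXC10, HOXD11) and 1 member.

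By the wider rule, 6 of 32 members passed at SP 3 h, 2 higher and 4 lower, against 11.5% of all genes (7.39% higher and 4.11% lower). At SP 24 h 10 of 32 passed, 7 higher and 3 lower, against 28.8% (16.8% and 12%). At SP 3 days 20 of 33 passed, 9 higher and 11 lower, against 48.6% (25.2% and 23.3%), and at SP 12 days 18 of 33, 7 higher and 11 lower, against 49.8% (26.4% and 23.4%). The members' shares by this rule were 18.75%, 31.25%, 60.6% and 54.5%, and nothing particular to the family is read from them. Libraries of SP and control did not overlap for 10 and 12 of the 32 members at SP 3 h and SP 24 h, against 27.3% and 44.4% of all genes, and for 21 and 19 of the 33 at SP 3 days and SP 12 days, against 61.2% and 55.9%. The median log2 fold change of the members tested was -0.27, 0.03, -0.21 and -0.16 in the same order, against 0.0034, -0.0099, -0.024 and -0.0037 for all genes.

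Without replicate 3 of control 24 h, 4 members passed at SP 3 h and 10 at SP 24 h, without replicate 3 of SP 3 h 4 passed at SP 3 h, and without replicate 3 of SP 12 days 22 passed at SP 12 days. The count at SP 3 h was the least firm: it fell to 2 without replicate 2 of SP 3 h and to 3 without replicate 1 of SP 3 h or replicate 3 of SP 24 h. HOXA10 passed at SP 3 h in all 9 fits that left out 1 library.

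**Figure D2:**
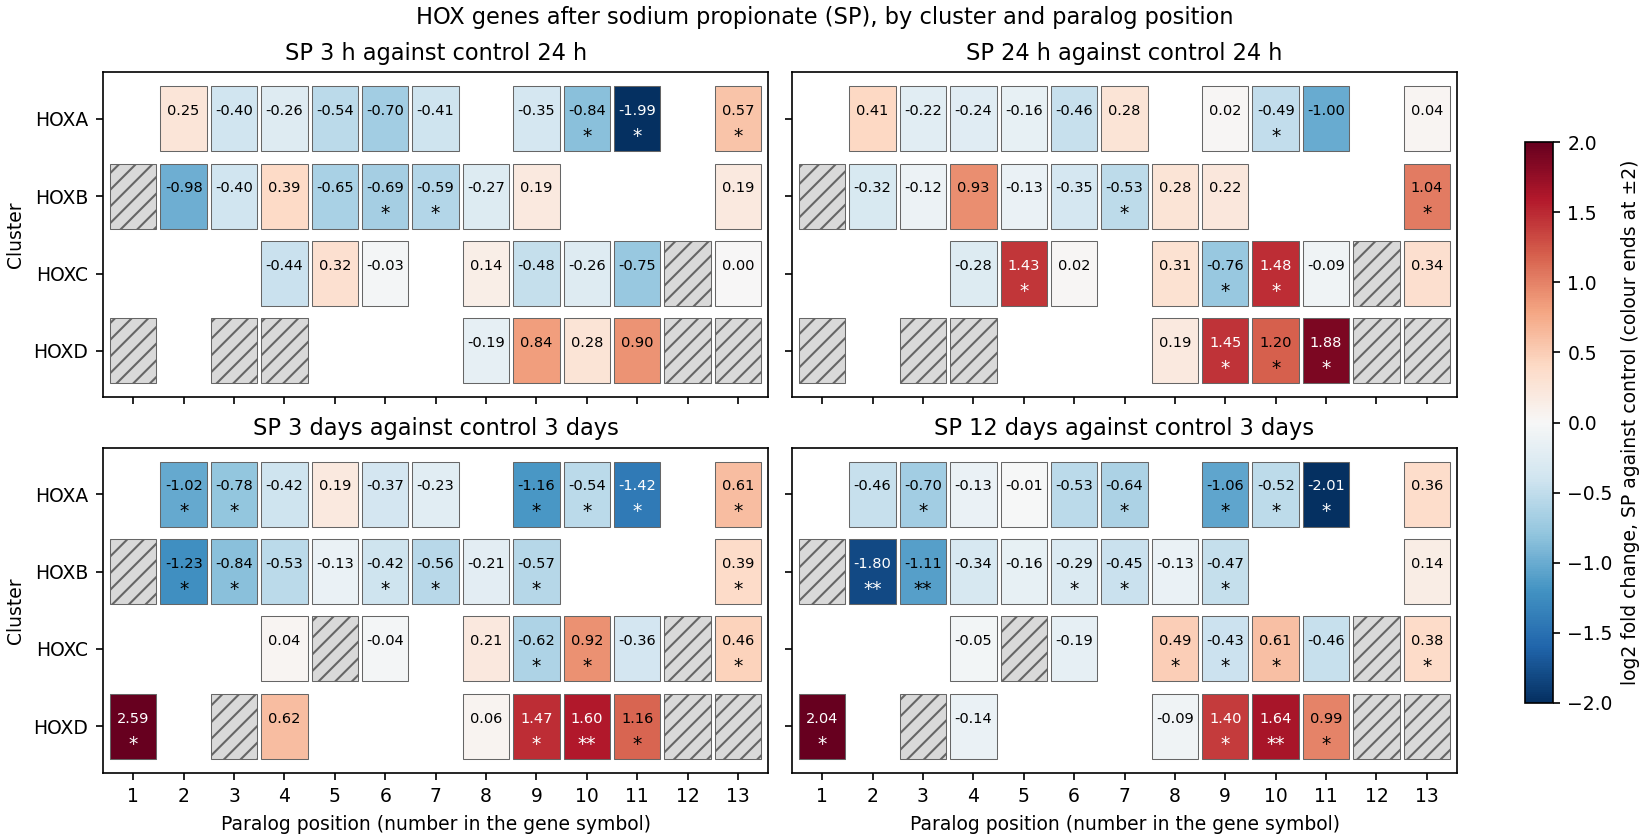
Log2 fold change of the HOX genes described here by cluster (rows) and paralog position (columns) in the 4 comparisons with control, red for higher and blue for lower with SP. Numbers are log2 fold changes, * marks an adjusted p under 0.05 and ** a called gene, hatched squares were not tested and empty places hold no gene described here. The HOXD row is red at positions 9 to 11 in all 4 comparisons, with * or ** at SP 24 h, SP 3 days and SP 12 days. Most HOXB squares are blue at SP 3 h, SP 3 days and SP 12 days.

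HOXC10, HOXD9, HOXD10 and HOXD11 rose in 3 or 4 of the comparisons, HOXA10, HOXA11, HOXB6, HOXB7 and HOXC9 fell in 3 or 4, and 0 of the 34 members tested rose in one and fell in another. Comparisons within a table share their control libraries. Shares of all genes with such patterns, or passing in none, were not computed. Nothing particular to the family is therefore read from these counts. A further 11 of the 34 members passed in none: HOXA4, HOXA5, HOXA6, HOXB4, HOXB5, HOXB8, HOXC4, HOXC6, HOXC11, HOXD4 and HOXD8, which holds both genes with airway roles. HOXA5 had log2 fold changes of -0.54, -0.16, 0.19 and -0.01 in the 4 comparisons by order of time, and HOXB5 had -0.65, -0.13, -0.13 and -0.16. Values for members beyond the called genes and the highest of each cluster were chosen for description after they were seen.

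The posterior HOXD genes HOXD9, HOXD10 and HOXD11 rose at SP 24 h, SP 3 days and SP 12 days. At SP 3 h their log2 fold changes were 0.84, 0.28 and 0.90, and none of them passed. HOXD10 (ENSG00000128710, chr2:176108790-176119937), which patterns the limb and lumbar region, measured 1.53, 1.69 and 1.003 CPM in the control 3 days libraries, 3.96, 4.197 and 4.66 CPM at SP 3 days and 4.67, 3.99 and 4.597 CPM at SP 12 days. All 6 treated libraries lay above all 3 control libraries. The log2 fold change was 1.60 ± 0.21 (SE) at SP 3 days (adjusted p = 1.34e-05) and 1.64 ± 0.21 at SP 12 days (adjusted p = 7.87e-06), about 3.02-fold and 3.12-fold, and HOXD10 was the 1 member called higher. In the table of hours it measured 0.899, 1.37 and 1.79 CPM in control 24 h, 2.04, 1.39 and 1.67 CPM at SP 3 h and 2.95, 2.68 and 3.88 CPM at SP 24 h. It rose at SP 24 h (log2 fold change 1.20, adjusted p = 0.0104), while its libraries overlapped at SP 3 h.

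The call at SP 3 days rested on an adjusted p close to the threshold: it was 0.000114 without replicate 1 of control 3 days, 0.000136 without replicate 3 of control 3 days, 0.000133 without replicate 2 of SP 3 days and 0.000195 without replicate 3 of SP 3 days. At SP 12 days HOXD10 stayed called with each library left out, and missed the call (adjusted p = 0.000147) in a fit of only the 2 groups compared. HOXD10 shared 452 bases of exon with HOXD11, and how reads there were counted is not given in the sources used here.

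HOXD11, another gene of the limb and kidney, measured 0.620, 1.25 and 0.826 CPM in control 3 days, 1.95, 1.95 and 2.03 CPM at SP 3 days and 2.399, 1.59 and 1.37 CPM at SP 12 days. It rose at both, by log2 fold changes of 1.16 and 0.99 (adjusted p = 0.00518 and 0.0132); at SP 12 days the adjusted p reached 0.0807 at most with 1 library left out, exceeding 0.05 without replicate 1 of control 3 days or replicate 1 of SP 12 days. In hours it measured 0.317, 0.686 and 0.490 CPM in control 24 h, 0.987, 0.745 and 1.099 CPM at SP 3 h and 1.82, 1.74 and 1.96 CPM at SP 24 h. The groups did not overlap at either time, and the difference passed at SP 24 h (log2 fold change 1.88 ± 0.28, adjusted p = 0.00131) and not at SP 3 h (adjusted p = 0.0938).

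HOXD9, which shares no exon bases with another gene, gives the same region without that overlap. Its levels were 1.34, 0.813 and 0.649 CPM in control 3 days, 1.89, 3.41 and 2.69 CPM at SP 3 days and 2.52, 2.29 and 2.74 CPM at SP 12 days, with all treated libraries above the controls (log2 fold change 1.47 and 1.40, adjusted p = 0.000644 and 0.000893). In hours the levels were 0.212, 0.897 and 0.525 CPM in control 24 h, 1.198, 1.004 and 0.773 CPM at SP 3 h and 1.697, 1.14 and 1.69 CPM at SP 24 h. HOXD9 rose at SP 24 h (log2 fold change 1.45, adjusted p = 0.0236). This adjusted p exceeded 0.05 without replicate 1 of control 24 h or replicate 1 or 3 of SP 24 h (0.0740 at most). It also exceeded 0.05 under 3 of the 7 alternatives. These were the replicate number as a block (adjusted p = 0.0509), offsets for GC content and length, and both together.

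The other HOXD members differed from these 3. HOXD1, the anterior end of the cluster, had only 6 reads over control 3 days, 35 over SP 3 days and 28 over SP 12 days. Its levels of 0.0954, 0.125 and 0.118 CPM in control 3 days, 0.669, 0.669 and 0.776 CPM at SP 3 days and 0.568, 0.448 and 0.442 CPM at SP 12 days did not overlap. It rose by log2 fold changes of 2.59 ± 0.47 and 2.04 ± 0.49 (adjusted p = 0.000282 and 0.00271). However, 60.1% of its exon length was shared with other genes, among them the noncoding HAGLR. HOXD1 also passed the filter on low counts only through the SP 3 days libraries, where it was highest. Its rise is therefore not independent of that filter. HOXD8, the highest of the cluster, measured 9.64, 8.88 and 5.96 CPM in control 3 days, 9.07, 9.49 and 7.05 CPM at SP 3 days and 7.83, 6.68 and 8.53 CPM at SP 12 days. In hours it measured 4.71, 4.96 and 5.78 CPM in control 24 h, 3.24, 4.79 and 5.41 CPM at SP 3 h and 5.29, 6.39 and 5.94 CPM at SP 24 h, and it overlapped control in all 4 comparisons (log2 fold changes -0.19 to 0.19). HOXD4 passed in neither comparison of days.

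The anterior HOXB genes HOXB2 and HOXB3 fell in days, and in hours neither passed the test. The difference between hours and days was not tested. HOXB3 (ENSG00000120093, chr17:48548870-48604912), a hindbrain gene, measured 58.1, 59.5 and 53.6 CPM in control 3 days, 32.7, 31.8 and 31.2 CPM at SP 3 days and 25.7, 22.2 and 31.5 CPM at SP 12 days. Each treated library was below each control library, and the log2 fold change was -0.84 ± 0.11 at SP 3 days (adjusted p = 1.29e-05) and -1.11 ± 0.11 at SP 12 days (adjusted p = 6.85e-07). It was called at SP 12 days, also with each library left out (largest adjusted p 1.23e-05), and missed the fold of 2 at SP 3 days. In hours HOXB3 measured 12.5, 18.7 and 19.5 CPM in control 24 h, 14.9, 12.99 and 10.6 CPM at SP 3 h and 14.5, 17.3 and 14.98 CPM at SP 24 h, with overlap at both times. It shared 870 bases of exon, 433 of them with HOXB6.

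HOXB2 (ENSG00000173917, chr17:48540894-48545109), which acts in the facial motor neurons of the hindbrain, measured 9.45, 11.1 and 8.97 CPM in control 3 days, 4.99, 4.81 and 2.81 CPM at SP 3 days and 3.22, 1.69 and 3.54 CPM at SP 12 days. The groups did not overlap. Its log2 fold change was -1.23 ± 0.24 at SP 3 days (adjusted p = 0.000594) and -1.80 ± 0.24 at SP 12 days (adjusted p = 2.45e-05), 0.427-fold and 0.287-fold of control. The call at SP 12 days was missed without replicate 1, 2 or 3 of control 3 days or replicate 1 of SP 12 days (adjusted p = 0.000158, 0.000358, 0.000222 and 0.000134), and at SP 3 days HOXB2 became called without replicate 2 or 3 of SP 12 days (2.27e-05 and 2.59e-06). In hours HOXB2 measured 2.33, 3.96 and 1.65 CPM in control 24 h, 1.41, 1.62 and 0.936 CPM at SP 3 h and 2.63, 1.72 and 1.99 CPM at SP 24 h. These were below control without overlap at SP 3 h (log2 fold change -0.98, adjusted p = 0.119) and overlapped it at SP 24 h.

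HOXB7, the highest member per kb of exon, measured 38.6, 32.4 and 31.3 CPM in control 24 h, 24.8, 20.2 and 23.04 CPM at SP 3 h and 23.8, 24.4 and 22.8 CPM at SP 24 h. In days it measured 33.98, 30.2 and 29.9 CPM in control 3 days, 20.2, 24.3 and 19.3 CPM at SP 3 days and 23.8, 22.8 and 22.3 CPM at SP 12 days. It lay below control without overlap in all 4 comparisons, by log2 fold changes of -0.59, -0.53, -0.56 and -0.45 (adjusted p = 0.0160, 0.0126, 0.000354 and 0.00184). Without replicate 2 of SP 3 h its adjusted p at SP 3 h was 0.0764, and without replicate 3 of SP 24 h that at SP 24 h was 0.0547. HOXB6 and HOXB9 fell at SP 3 days and SP 12 days (log2 fold changes -0.42 and -0.29, and -0.57 and -0.47), with the adjusted p of HOXB6 at SP 12 days up to 0.0720 without replicate 1 of control 3 days or replicate 2 of SP 12 days. At SP 3 h HOXB6 fell as well (-0.69, adjusted p = 0.0409), with an adjusted p over 0.05 in 8 of the 9 fits that left out 1 library. HOXB13, far from the rest of the cluster and a prostate gene, was the 1 HOXB member to rise: from 9.84, 12.2 and 11.7 CPM in control 24 h to 20.0, 27.0 and 22.6 CPM at SP 24 h (log2 fold change 1.04 ± 0.17, adjusted p = 0.00213), and by 0.39 at SP 3 days (adjusted p = 0.00769).

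**Figure D3:**
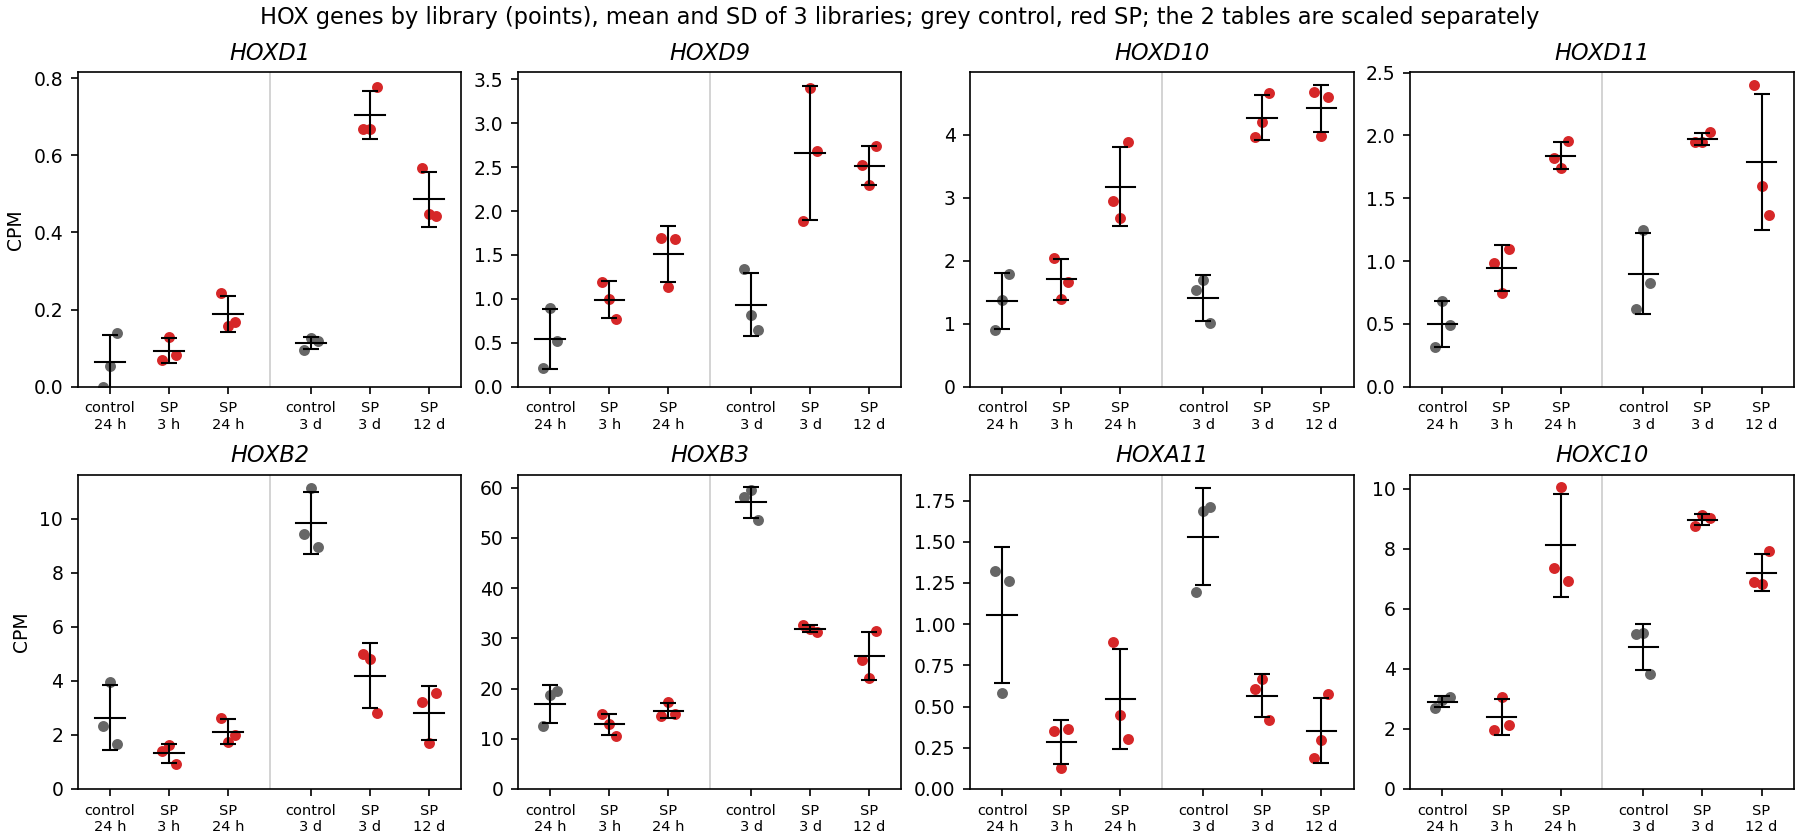
CPM of 8 HOX genes in each of the 18 libraries, by group, grey for control and red for SP, with the mean and SD of 3 libraries as bars. The grey line divides the 2 separately scaled tables. HOXD9, HOXD10 and HOXD11 lie above control at SP 24 h, 3 days and 12 days, and HOXB2 and HOXB3 lie below control in days.

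In the HOXA cluster HOXA3, HOXA9, HOXA10 and HOXA11 fell in days. HOXA13, the posterior end of the cluster, rose at SP 3 h (0.57, adjusted p = 0.0421) and SP 3 days (0.61, adjusted p = 0.00656). Its adjusted p at SP 3 h exceeded 0.05 in 6 of the 9 fits that left out 1 library, up to 0.145, and at SP 3 days it was 0.0535 without replicate 1 of SP 3 days.

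HOXA11, a gene of the uterus and limb, measured 1.19, 1.69 and 1.71 CPM in control 3 days, 0.608, 0.669 and 0.418 CPM at SP 3 days and 0.189, 0.299 and 0.575 CPM at SP 12 days, with no overlap. It fell at both times (log2 fold change -1.42 ± 0.36 and -2.01 ± 0.37, adjusted p = 0.00399 and 0.000336). At SP 3 h it measured 0.352, 0.130 and 0.366 CPM against 1.32, 0.581 and 1.26 CPM in control 24 h (log2 fold change -1.99, adjusted p = 0.0449), a difference of 18 reads against 72 whose adjusted p exceeded 0.05 in 7 of the 9 fits with 1 library left out (adjusted p up to 0.187). In hours HOXA11 passed the filter on low counts only with the control 24 h libraries, where it was highest. Its fall at SP 3 h is therefore not independent of that filter. HOXA11 shared 726 bases of exon with HOXA11-AS, the noncoding gene that also covers the promoter shown.

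HOXA10, its neighbour and likewise a uterine gene, fell in all 4 comparisons (log2 fold changes -0.84, -0.49, -0.54 and -0.52, adjusted p = 0.00832, 0.0360, 0.0200 and 0.0216). With 1 library left out its adjusted p exceeded 0.05 in 6, 3 and 1 of the 9 fits at SP 24 h, 3 days and 12 days, up to 0.135, 0.107 and 0.113, and in none at SP 3 h. HOXA3, the highest of the cluster and a gene of the thymus and parathyroid, measured 29.7, 27.9 and 28.9 CPM in control 3 days, 18.1, 17.1 and 15.1 CPM at SP 3 days and 17.9, 19.3 and 16.2 CPM at SP 12 days. It fell without overlap (log2 fold change -0.78 ± 0.10 and -0.70 ± 0.10, adjusted p = 1.42e-05 and 3.61e-05), under the fold of 2. In hours HOXA3 measured 17.8, 21.5 and 30.8 CPM in control 24 h, 22.9, 18.1 and 12.3 CPM at SP 3 h and 20.4, 19.8 and 19.9 CPM at SP 24 h, and the groups overlapped. HOXA9, a gene of blood progenitors, fell in days (-1.16 and -1.06), and HOXA2 at SP 3 days (-1.02) and HOXA7 at SP 12 days (-0.64). The adjusted p of HOXA9 exceeded 0.05 in 4 and 3 of the 9 fits that left out 1 library. That of HOXA7 was 0.0599 without replicate 1 of control 3 days. HOXA9 passed the filter on low counts in days only with the control 3 days libraries, where it was highest. Its fall is therefore not independent of that filter.

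In the HOXC cluster HOXC10, a gene of the lumbar region and hindlimb, measured 2.697, 2.96 and 3.05 CPM in control 24 h, 1.97, 3.08 and 2.12 CPM at SP 3 h and 7.36, 10.1 and 6.91 CPM at SP 24 h. It rose at SP 24 h (log2 fold change 1.48 ± 0.22, adjusted p = 0.00112) with no overlap, and overlapped control at SP 3 h. In days it measured 5.15, 5.19 and 3.83 CPM in control 3 days, 8.76, 9.12 and 9.02 CPM at SP 3 days and 6.88, 6.82 and 7.91 CPM at SP 12 days (log2 fold change 0.92 and 0.61, adjusted p = 9.43e-05 and 0.00295), so that at SP 3 days the fold of 1.89 kept it from a call.

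HOXC9, 1 position anterior, went the opposite way and fell at SP 24 h, 3 days and 12 days (log2 fold changes -0.76, -0.62 and -0.43, adjusted p = 0.00631, 0.00666 and 0.0390). The last of these was lost in 4 of the 9 fits that left out 1 library (adjusted p up to 0.152) and under 5 of the 7 alternatives, and its libraries overlapped control at SP 12 days. HOXC13, the highest of the cluster and a hair and nail gene, measured 16.8, 16.3 and 16.05 CPM in control 3 days, 23.1, 23.5 and 21.1 CPM at SP 3 days and 21.6, 20.2 and 22.2 CPM at SP 12 days. It rose without overlap by log2 fold changes of 0.46 ± 0.10 and 0.38 ± 0.09 (adjusted p = 0.000857 and 0.00348). In hours HOXC13 measured 11.95, 15.2 and 15.1 CPM in control 24 h, 14.2, 16.0 and 12.1 CPM at SP 3 h and 14.5, 20.2 and 18.6 CPM at SP 24 h, with overlap at both times. HOXC5 rose at SP 24 h on 70 reads against 17 (log2 fold change 1.43, adjusted p = 0.0159), with 67.3% of its exon length shared. Its adjusted p was up to 0.0614 without replicate 2 of control 24 h or replicate 2 of SP 24 h. HOXC5 passed the filter on low counts only through the SP 24 h libraries, where it was highest. This rise is therefore not independent of that filter. HOXC8 rose at SP 12 days (0.49, adjusted p = 0.0371), which was lost in 7 of 9 such fits and under 3 of the 7 alternatives.

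Summed over a cluster, the libraries showed HOXD and HOXC above and HOXA and HOXB below control in days. The HOXD sum was 12.5 ± 2.24 CPM in control 3 days (SD, n = 3), 19.4 ± 1.49 CPM at SP 3 days and 17.6 ± 1.58 CPM at SP 12 days, and 8.07 ± 1.54 CPM in control 24 h against 12.96 ± 0.844 CPM at SP 24 h, with no overlap at these 3 times. The HOXB sum went from 231 ± 6.41 CPM in control 3 days to 170 ± 7.43 and 167 ± 17.3 CPM, and the HOXA sum from 63.6 ± 1.67 to 53.5 ± 3.58 and 49.4 ± 2.23 CPM, all without overlap. In hours the HOXB sum was 124 ± 13.1 CPM in control 24 h, 97.8 ± 9.19 CPM at SP 3 h, below control without overlap, and 124 ± 7.37 CPM at SP 24 h, where it overlapped. The HOXA sum overlapped control at both of these times. Summed levels are dominated by the high members, and no test was made on them.

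**Figure D4:**
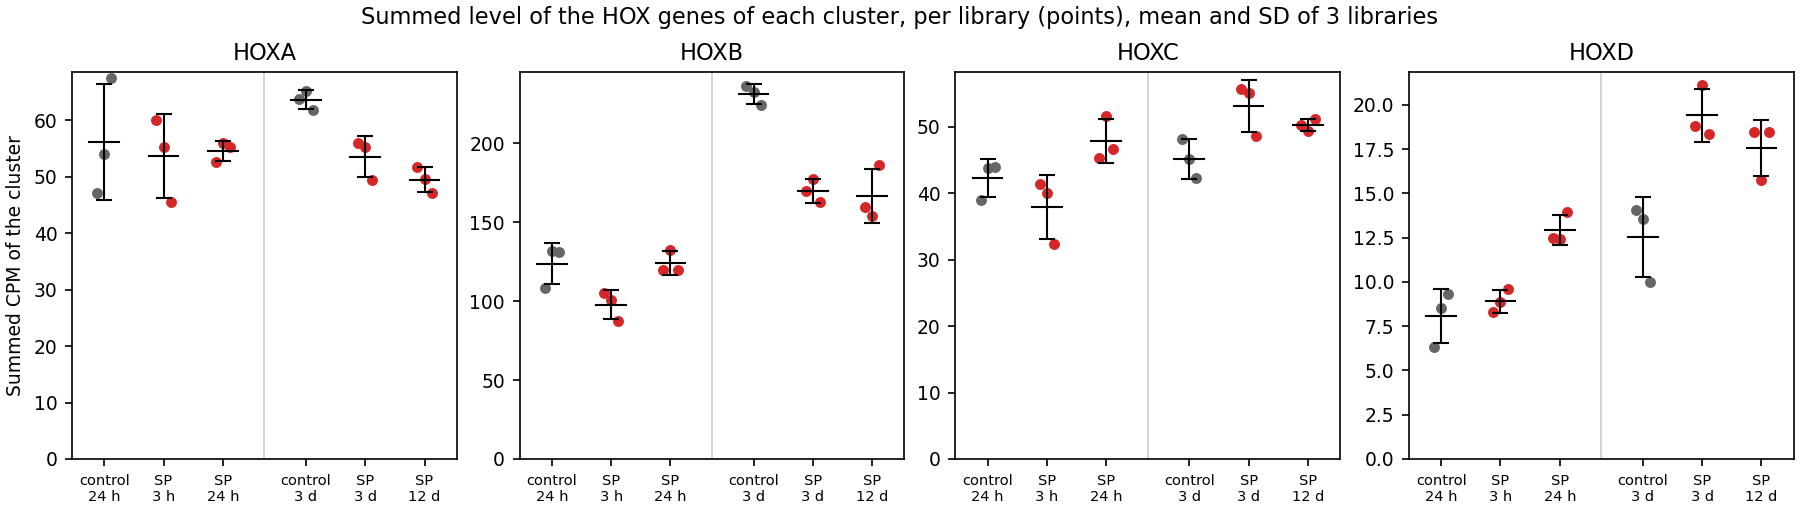
Summed CPM of the HOX genes of each cluster in each library, by group, grey for control and red for SP, with the mean and SD of 3 libraries as bars. HOXD goes from 12.5 CPM in control 3 days to 19.4 CPM at SP 3 days, while HOXB goes from 231 to 170 CPM.

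By cluster, the median log2 fold change of the members tested at SP 3 h was 0.56 for HOXD, -0.15 for HOXC, -0.40 for HOXA and -0.40 for HOXB. At SP 24 h the medians were 1.32, 0.17, -0.16 and -0.12 in the same order. At SP 3 days they were 1.32, 0.04, -0.42 and -0.53, against -0.02 for all genes. At SP 12 days they were 1.19, -0.05, -0.52 and -0.34. By the wider rule 4 of 6 HOXD members were higher there, and 5 of 9 HOXB and 5 of 11 HOXA members lower. Of all genes 26.4% were higher and 23.4% lower. HOXD1, counted among the HOXD members in days, passed the filter on low counts only through SP 3 days. HOXA9, counted among the HOXA members and at position 9, passed it in days only with the control 3 days libraries. By paralog position at SP 3 days, both members tested at position 2 and both at position 3 fell. All 3 at position 13 rose. At positions 9, 10 and 11 paralogs split at SP 3 days: of 10 members, 4 rose and 5 fell. HOXD genes were among the former and HOXA genes among the latter. Of all genes 25.2% rose and 23.3% fell at that time. At SP 12 days 1 of 2 members fell at position 2 and 2 of 2 at position 3, and 1 of 3 rose at position 13. At SP 3 h and at SP 24 h 0 passed at positions 2 and 3, and 1 of 3 rose at position 13. Of all genes 7.39% rose and 4.11% fell at SP 3 h, and 16.8% rose and 12% fell at SP 24 h.

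Between the times of SP, 7 of 32 members differed between SP 24 h and SP 3 h, against 20.1% of all genes, and 0 were called, against 0.0288% (12 at an unadjusted p under 0.05, and 1, HOXC10, called by DESeq2). HOXC10 had the largest difference, from 1.97, 3.08 and 2.12 CPM to 7.36, 10.1 and 6.91 CPM (log2 difference 1.74 ± 0.22, adjusted p = 0.00121). HOXB13 was also higher at 24 h (0.85, adjusted p = 0.00885). Between SP 12 days and SP 3 days 0 of 33 members passed an adjusted p of 0.05, against 8.1% of all genes, and 0 were called, against 0.18%, with a smallest adjusted p of 0.138 and 5 members at an unadjusted p under 0.05, so calls at 12 days alone are not shown to differ from 3 days.

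The noncoding genes of the clusters were listed with 66 members, of which 19 were tested in days and 17 in hours. HAGLR, an antisense RNA of the HOXD cluster, was the 1 called, at SP 3 days, where 8.44% of all genes were called (6.58% higher). It measured 1.05, 0.750 and 1.53 CPM in control 3 days, 3.53, 4.14 and 3.34 CPM at SP 3 days and 2.02, 2.39 and 3.09 CPM at SP 12 days (log2 fold change 1.71 ± 0.26 and 1.18 ± 0.27, adjusted p = 5.34e-05 and 0.00166). It rose at SP 3 h and SP 24 h as well (1.02 and 1.54, adjusted p = 0.0290 and 0.00160), and shared 705 bases of exon with other genes. By the wider rule 1 noncoding gene rose and 3 fell at SP 3 days, where 25.2% of all genes rose and 23.3% fell, and 2 rose and 4 fell at SP 12 days, where 26.4% rose and 23.4% fell. Of the 16 protein-coding genes on either side of the clusters, 14 were tested in days and 13 in hours, and none was called. Of all genes 8.44% were called at SP 3 days and 9.11% at SP 12 days. At SP 3 days 3 of the protein-coding genes rose and 6 fell, and at SP 12 days 3 rose and 7 fell, against the shares of all genes that rose and fell given above.

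Among partners of HOX proteins, the PBX, MEIS and PKNOX genes, 8 of 9 were tested. At SP 3 days 4 rose and 2 fell, against 25.2% and 23.3% of all genes, and at SP 12 days 4 rose and 0 fell, against 26.4% and 23.4%. MEIS2 was the 1 called, at 25.7, 24.6 and 23.5 CPM in control 3 days, 67.4, 71.1 and 67.9 CPM at SP 3 days and 49.9, 44.98 and 72.8 CPM at SP 12 days (log2 fold change 1.48 ± 0.15 and 1.19 ± 0.14, adjusted p = 1.78e-06 and 1.34e-05). In hours MEIS2 first fell, to 13.1, 11.3 and 12.8 CPM at SP 3 h against 23.1, 23.5 and 21.9 CPM in control 24 h (-0.88, adjusted p = 0.00523), and rose at SP 24 h (0.71, adjusted p = 0.00633). Of the other homeobox genes related to HOX (the CDX, GSX, PDX, EVX and MNX genes), 3 of 9 were tested, and at SP 3 days and SP 12 days 2 rose and 1 fell, none of them called. For this list and for MEIS2, the shares of all genes called at these times were 8.44% and 9.11%.

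Of the regulators of the clusters, the retinoic acid list had 15 of 18 genes tested in days, with 10 higher and 4 lower at SP 3 days, against 25.2% and 23.3% of all genes, and 8 higher and 4 lower at SP 12 days, against 26.4% and 23.4%. Of these genes 1 was called at SP 24 h, 2 at SP 3 days and 3 at SP 12 days, all higher. Of all genes 0.685%, 8.44% and 9.11% were called in either direction at these times. CRABP2, a carrier of retinoic acid into the nucleus, was called at SP 24 h, 3 days and 12 days (log2 fold changes 3.73, 3.66 and 3.58) and measured 1.48, 1.38 and 1.65 CPM in control 3 days and 17.5, 19.5 and 20.2 CPM at SP 3 days. CRABP1, a related carrier, was called at SP 3 days (2.96, adjusted p = 2.00e-05).

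Of 27 Polycomb genes, all tested, 5 rose and 7 fell at SP 3 days, against 25.2% and 23.3% of all genes, and 4 rose and 10 fell at SP 12 days, against 26.4% and 23.4%. PHF19, a partner of the PRC2 methyltransferase, was the 1 called: it measured 70.8, 63.3 and 77.3 CPM in control 3 days, 22.8, 24.2 and 26.4 CPM at SP 3 days and 28.3, 27.0 and 16.7 CPM at SP 12 days, and was called lower at SP 24 h, 3 days and 12 days (log2 fold changes -1.63, -1.52 and -1.56). Of the 12 Trithorax and related genes none was called, with 1 higher and 3 lower at SP 3 days, where 25.2% and 23.3% of all genes were. For both lists, 0.685%, 8.44% and 9.11% of all genes were called at SP 24 h, 3 days and 12 days. Median log2 fold changes at SP 3 days were 0.46 for the partners, 0.48 for the retinoic acid list, -0.08 for Polycomb and -0.02 for Trithorax, against -0.02 for all genes.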

How the data were processed

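RNA from 18 A549 libraries was sequenced as paired ends, from total RNA. Per the labels and methods, the authors aligned reads with STAR 2.7.9a to GRCh38 (release 105) and counted them per gene with featureCounts, and the deposited values are raw counts in 2 tables, 1 of hours and 1 of days. The strand setting and how reads in more than 1 gene were counted are not given in the sources used here.

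Genes were kept by the edgeR filter (minimum count 10), scaled by TMM within each table and tested with edgeR 4.0.16 (robust quasi-likelihood, R 4.3.3) on all 9 libraries of a table with group as the only term, which kept 17775 genes in days and 17377 in hours. The Benjamini-Hochberg adjustment covered every gene tested in a table. CPM per kb used merged exons of GENCODE 44. No test crossed the tables. Alternatives were DESeq2 1.42.0, DESeq2 size factors, no filter, only the 2 groups compared, the replicate number as a block, offsets for GC content and length, both together, and each library left out. The scripts were tested on simulated data.

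Same-numbered libraries of SP 24 h and control 24 h had residual correlations of 0.499, 0.17 and 0.504. Differently numbered libraries reached 0.175 for SP 24 h replicate 2 with control 24 h replicate 3. For SP 3 h replicate 3 with control 24 h replicate 1 the value was 0.576. Pairing by replicate number is therefore not shown by these values. Values in every library were given for called members and the highest of each cluster, genes of other lists were named only where called, and other members were chosen after their values were seen. The members and lists were chosen with earlier results of these data known. The total counts of 14187401 to 43765330 per library limit the precision of members with few reads. Of the members and the genes of the other lists, 2 are counted but not reported here.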

Additional observations from a re-analysis of the deposited data

Results flagged for a closer look

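For 7 members the test of SP 24 h against SP 3 h passed an adjusted p of 0.05 (edgeR). HOXC10 was higher at 24 h by a log2 difference of 1.74 (adjusted p = 0.00121) and HOXB13 by 0.85 (0.00885), and both passed with each of the 9 libraries of the table left out in turn. HOXC5 was higher by 1.11 (0.0473), HOXD11 by 0.97 (0.0268), HOXD10 by 0.92 (0.039) and HOXB8 by 0.55 (0.0368), while HOXA13 was lower, by a log2 difference of -0.53 (0.0377). With 1 library left out these 5 missed an adjusted p of 0.05 in 6, 5, 7, 7 and 5 of the 9 fits. Their adjusted p was up to 0.177, 0.0911, 0.14, 0.118 and 0.118. HOXC5 passed the filter on low counts only through the SP 24 h libraries, so its difference is not independent of that filter.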

How the results depend on the processing

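Among the values of counts and levels, 148 stayed as reported under an alternative and 20 moved, and among values of single genes 415 stayed, 16 reversed, 5 became called and 12 lost the call. DESeq2 called 1 member at SP 3 h, 3 at SP 24 h, 2 at SP 3 days and 1 between SP 24 h and SP 3 h, and without the filter on low counts the numbers were 1, 3, 3 and 1, with 5 at SP 12 days. With only the 2 groups compared, 2 members passed an adjusted p of 0.05 at SP 3 h and 2 were called at SP 3 days. With the replicate number as a block, the called members were 0, 0, 1 and 2 in the 4 comparisons with control by order of time, and those past an adjusted p of 0.05 were 6, 9, 20 and 18. Whether replicate numbers pair libraries is not known, and at SP 24 h the block removed HOXD9. At SP 12 days HOXB2 missed the call under the block (adjusted p = 0.000238). It also missed it with the GC content and length offsets, alone and with the block. Leaving out 1 library in turn gave 0 to 3 called members at SP 3 days and 2 to 4 at SP 12 days, and 2 to 5 members past an adjusted p of 0.05 at SP 3 h, 7 to 10 at SP 24 h, 18 to 21 at SP 3 days and 13 to 22 at SP 12 days. Over all genes, 119 were called at SP 24 h, against 1192 by DESeq2, 1131 without the filter, 393 with GC content and length offsets, 306 with these and the block, 4 with only the 2 groups and 2 with the block. At SP 3 h 0 were called, against 415 by DESeq2, 408 without the filter, 86 with the offsets and 14 with these and the block. The values that reversed lay near 0: HOXA3 at SP 24 h (log2 fold change -0.41 to 0.025 with 1 library left out), HOXB2 at SP 24 h (-0.59 to 0.082), HOXD8 at SP 3 days (-0.12 to 0.20) and SP 12 days (-0.27 to 0.0499), and HOXC13 at SP 3 h (-0.12 to 0.10, with -0.0231 in DESeq2, -0.0230 with its size factors, -0.0096 without the filter, -0.0143 with only the 2 groups, -0.0525 with GC content and length offsets and -0.0540 with these and the block). The cause was not tested. Members with few reads, such as HOXD1, HOXC5 and HOXA11, are limited by depth.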
